A study of Mus musculus with 36 samples.

Results

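The subunits of the mitochondrial respiratory chain and of ATP synthase that are encoded in the nucleus were described in single mouse oocytes at the germinal vesicle stage, the stage at which a fully grown oocyte is arrested before its first meiotic division. Members were genes whose GENCODE M21 symbol names a subunit of complex I (Nduf genes), complex II (Sdh genes), complex III (Uqcr genes and Cyc1), complex IV (the somatic Cox subunit genes) or complex V, the ATP synthase (Atp5 genes). The rule found 78 of 21968 genes in the count table: 37 for complex I, 4 for complex II, 9 for complex III, 11 for complex IV and 17 for complex V. It used symbols and no measured value. The study compared 18 oocytes labelled Drp1_KO, from mice a to d, with 18 oocytes labelled Drp1_WT, from mice 1 to 5, one library per oocyte. Drp1 is the protein of Dnm1l, the GTPase that divides mitochondria. Mice are the replicates (n = 4 and 5), since the 3 to 5 oocytes of a mouse are not independent. The labels give no strain, age or Cre driver for either genotype.

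Complexes I to IV pass electrons from NADH and succinate to oxygen and, apart from complex II, pump protons across the inner mitochondrial membrane. ATP synthase uses the resulting gradient to make ATP. The core of complexes I, III, IV and V is built from subunits of both genomes, whereas complex II is wholly nuclear in origin. Fully grown oocytes hold a large store of mitochondria and of maternal mRNA, and they rely on oxidative phosphorylation fed by pyruvate.

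Libraries held 3178509 to 7104219 counts in Drp1_KO and 4699541 to 7406895 counts in Drp1_WT oocytes. All 12 oocyte markers, among them Zp3, Gdf9 and Bmp15, were detected in both labels, with a summed level of 15186 to 35452 CPM (counts per 1000000 counts of the library) in Drp1_KO and 23517 to 38421 CPM in Drp1_WT oocytes. Markers of granulosa cells summed to 77.5 to 139 CPM in Drp1_KO and 91.4 to 151 CPM in Drp1_WT oocytes. Dnm1l itself averaged 207 ± 15.9 CPM in Drp1_KO mice and 239 ± 69.3 CPM in Drp1_WT mice (SD, n = 4 and 5), and edgeR's quasi-likelihood test did not call the difference (adjusted p = 0.706). Here and below, the CPM of a gene per mouse are scaled with edgeR's TMM factors over the tested genes, and are not plain shares. A count per gene cannot show whether an exon is deleted. Per oocyte, Dnm1l was at 144 to 274 CPM in libraries labelled Drp1_KO, against 116 to 156 CPM in the 5 libraries labelled Drp1_WT in tubes 11 to 15 (2 of mouse 3 and all of mouse 4) and 234 to 322 CPM in the other 13 labelled Drp1_WT. The low level in those 5 libraries goes against their label, so the comparisons of labels and of tube sets are also given without them. One library, tube 10 of mouse b, labelled Drp1_KO, stood apart from all others. Tube numbers 27 to 30 occur in mouse d (Drp1_KO) and mouse 5 (Drp1_WT) alone, and tube numbers 1 to 15 in the other 7 mice. The labels do not say what the tube numbers mean.

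All 78 genes passed the filter on low counts that left 12812 genes for testing, and 77 of them had counts in each of the 36 oocytes. The exception was Atp5g2, with 0 of 4893482 counts in tube 10 of mouse b, where 3 counts would be 0.613 CPM. Together the 78 genes took 0.465% to 1.45% of the counts in Drp1_KO oocytes (median 1.13%) and 0.933% to 1.54% in Drp1_WT oocytes (median 1.16%). Most of their mRNAs are short. The median length of the principal transcript was 786 bases for the 78 genes and 2757 bases for the tested genes, and 49 of the 78 (62.8%) were under 1000 bases, against 7.71% of the tested genes. Of the 78 genes, 30 have a near-identical stretch in a transcript of another gene (at least 97% identity over 100 bases) and 28 share exon bases with another gene. Counts of these genes are uncertain to that extent, since the treatment of reads with several matches is not given in the sources used here and the kits named in the labels keep no strand.

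Promoter windows of RefSeq (GRCm38.p6, from 250 bases before to 50 bases after the start site, 300 bases in all) were available for 65 of the 78 genes and were searched on both strands for 4 words linked to factors that are known to act on respiratory genes. The word of NRF1 (GCGCATGC) was in the windows of 10 of the 65 genes (15.4%), against 5.84% of 10170 other tested genes and 3.05% of 27025 genes with a window. The word of YY1 (AANATGGC) was in 17 (26.2%), against 9.63% of other tested genes and 6.96% of all genes. The core word of ETS factors such as GABP (CCGGAAG) was in 16 (24.6%), against 19.2% and 9.93%. The GC box of Sp1 (GGGCGG) was in 27 (41.5%), against 64.9% and 38.2%. None of the words is part of another. Of the 17 genes with the YY1 word, 12 belong to complex I, which has 33 genes with a window. A match is a description of letters and no evidence of binding.

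The windows of 6 genes are shown: for the NRF1, ETS and YY1 words, the gene with that word and the highest mRNA level per kilobase, and the 3 genes of the c-ring of ATP synthase (Atp5g1, Atp5g2 and Atp5g3), which encode the same mature protein but had different mRNA levels. All are on GRCm38.p6 and are written 5′ to 3′ on the strand of the gene, with every match to one of the 4 words in capitals. Ndufa11, with the NRF1 word, lies on the plus strand (chr17:56717512-56717811). Atp5e, with an ETS word and GC boxes (chr2:174464052-174464351), and Ndufb11, with the YY1 word (chrX:20617570-20617869), lie on the minus strand. The c-ring genes are all on the minus strand: Atp5g1 (chr11:96075582-96075881) and Atp5g3 (chr2:73911277-73911576) held none of the 4 words, and Atp5g2 (chr15:102670998-102671297) held the NRF1 word and a GC box, at a RefSeq start 1305 bases inside the gene's GENCODE start.
Ndufa11: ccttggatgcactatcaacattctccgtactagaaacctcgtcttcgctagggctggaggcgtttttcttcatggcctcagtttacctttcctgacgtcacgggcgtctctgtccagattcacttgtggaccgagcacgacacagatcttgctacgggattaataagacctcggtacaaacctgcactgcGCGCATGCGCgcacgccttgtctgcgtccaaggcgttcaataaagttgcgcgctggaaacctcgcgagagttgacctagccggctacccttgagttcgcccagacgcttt
Atp5e: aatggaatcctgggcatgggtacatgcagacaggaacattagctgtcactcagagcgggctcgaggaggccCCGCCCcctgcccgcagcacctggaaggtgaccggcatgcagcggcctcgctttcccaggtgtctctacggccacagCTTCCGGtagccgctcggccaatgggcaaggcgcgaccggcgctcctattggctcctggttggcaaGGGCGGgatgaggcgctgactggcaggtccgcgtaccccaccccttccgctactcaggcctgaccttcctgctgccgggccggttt
Ndufb11: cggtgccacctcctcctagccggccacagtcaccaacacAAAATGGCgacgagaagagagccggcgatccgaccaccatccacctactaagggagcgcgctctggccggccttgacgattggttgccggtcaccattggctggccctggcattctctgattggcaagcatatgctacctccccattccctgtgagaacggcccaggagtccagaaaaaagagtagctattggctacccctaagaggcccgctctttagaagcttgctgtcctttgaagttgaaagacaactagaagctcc
Atp5g1: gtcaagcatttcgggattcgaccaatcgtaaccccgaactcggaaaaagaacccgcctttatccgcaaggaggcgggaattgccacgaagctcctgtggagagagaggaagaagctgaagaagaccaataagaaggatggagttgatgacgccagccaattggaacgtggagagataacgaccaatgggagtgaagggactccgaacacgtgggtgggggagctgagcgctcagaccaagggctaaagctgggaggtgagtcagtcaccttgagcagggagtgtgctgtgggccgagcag
Atp5g2: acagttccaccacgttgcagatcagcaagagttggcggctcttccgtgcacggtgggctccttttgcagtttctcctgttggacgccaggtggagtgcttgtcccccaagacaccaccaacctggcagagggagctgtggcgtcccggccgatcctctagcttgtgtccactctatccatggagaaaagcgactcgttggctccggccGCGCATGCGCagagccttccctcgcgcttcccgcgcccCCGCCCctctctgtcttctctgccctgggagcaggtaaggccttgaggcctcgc
Atp5g3: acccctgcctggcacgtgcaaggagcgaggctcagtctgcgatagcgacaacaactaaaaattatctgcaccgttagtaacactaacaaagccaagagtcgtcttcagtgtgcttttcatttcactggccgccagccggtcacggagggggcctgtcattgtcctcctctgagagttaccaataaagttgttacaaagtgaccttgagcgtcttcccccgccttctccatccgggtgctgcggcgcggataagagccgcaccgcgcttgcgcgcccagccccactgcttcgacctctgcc

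Levels within each complex differed widely between subunits. They are compared here as CPM per kilobase of principal transcript, averaged over the 9 mice. In complex I the highest were Ndufa11 at 429, Ndufa2 at 395 and Ndufa4 at 388 CPM per kilobase. Ndufa11 and Ndufa2 are accessory subunits, and Ndufa4 is now counted as a subunit of complex IV. The lowest was Ndufs1 at 13.1 CPM per kilobase, a core subunit that carries iron-sulfur clusters. Ndufab1, the mitochondrial acyl carrier protein, was at 43.9 CPM per kilobase. In complex II, Sdhd (302) stood above Sdhb (121), Sdha (54.98) and Sdhc (36.5 CPM per kilobase). Sdha is the flavoprotein that oxidises succinate, Sdhb carries the iron-sulfur clusters, and Sdhc and Sdhd anchor both in the membrane.

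In complex III the hinge protein Uqcrh (547), Uqcrq (498) and the core protein Uqcrc2 (208 CPM per kilobase) led. The other core protein, Uqcrc1, was the lowest at 6.85 CPM per kilobase, and cytochrome c1 (Cyc1) was at 11.9 CPM per kilobase. Complex IV was the most even, with Cox4i1 (562), Cox5a (539.5) and Cox6c (487) highest and Cox7c (113 CPM per kilobase) lowest. In ATP synthase, Atp5e, the epsilon subunit of the central stalk, was the highest of all 78 at 697 CPM per kilobase, followed by Atp5mpl (575) and Atp5j2 (315 CPM per kilobase), small subunits of the membrane part. Atp5s, the coupling factor B, was the lowest at 4.38 CPM per kilobase. Of the c-ring genes, Atp5g1 was at 141, Atp5g3 at 75.9 and Atp5g2 at 11.1 CPM per kilobase. For 9 of the 78 genes, equally well supported principal transcripts differ in length, and for 5 the longest is over 1.5 times the shortest, which was used. With the longest, Uqcrq would be at 132, Atp5g1 would be at 17.9, below Atp5g3, and Ndufb2 at 9.52 in place of 91.4 CPM per kilobase, the lowest of complex I.

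**Figure D1:**
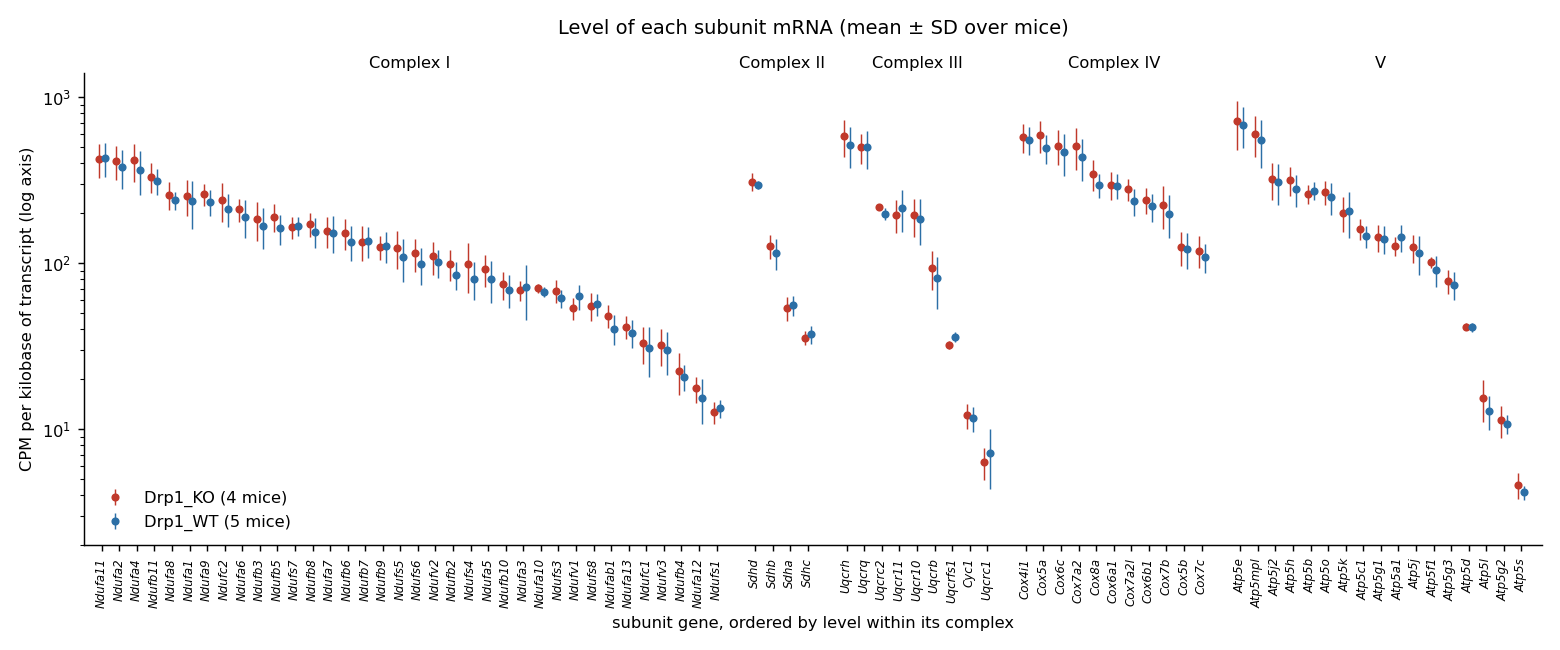
Level of 77 of the 78 subunit mRNAs in CPM per kilobase of principal transcript on a log axis, with genes ordered by level within each complex. Red points are means of the 4 Drp1_KO mice and blue points means of the 5 Drp1_WT mice, with bars of 1 SD. Levels within a complex ran from 4.38 to 697 CPM per kilobase in ATP synthase and from 113 to 562 in complex IV.

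No subunit mRNA passed the test of Drp1_KO against Drp1_WT mice. In edgeR's quasi-likelihood test on counts summed per mouse, with Benjamini-Hochberg adjustment over 12812 genes, 0 of 78 were called, at a background of 0.0156% of tested genes. At an unadjusted p under 0.05, 0 of 78 passed as well, where 9.69% of tested genes did. DESeq2 and limma-voom also called 0 of 78. For no member did all Drp1_KO mice lie above all Drp1_WT mice (background 1.26%) or below them (background 1.3%). The 95% intervals of the 78 log2 fold changes reached from -0.79 to 0.75, so none reaches a 2-fold change (1 on the log2 scale). Missing the threshold does not show that levels were equal.

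In complex I, Ndufv1, which binds FMN and NADH, was at 98.5, 85.0, 101 and 72.3 CPM in Drp1_KO mice, against 133, 92.8, 102, 113 and 87.1 CPM in Drp1_WT mice (log2 fold change -0.24, SE 0.14, edgeR adjusted p = 0.567). Its Drp1_KO mice a and c lay above Drp1_WT mice 2 and 5, so the groups overlapped. Values of single genes per mouse include tube 10 of mouse b, without which the log2 fold change of Ndufv1 was -0.20. Ndufab1 and Ndufs4 had the opposite sign, with log2 fold changes of 0.26 (SE 0.16) and 0.29 (SE 0.21), neither called.

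In complex III, Uqcrc2 was at 440.1, 411, 409 and 401 CPM in Drp1_KO mice, against 363, 363, 376, 355 and 428 CPM in Drp1_WT mice. All Drp1_KO mice were above 4 of the Drp1_WT mice and 3 were below mouse 5 (log2 fold change 0.14, SE 0.10, edgeR adjusted p = 0.607). Uqcrfs1, the Rieske iron-sulfur protein, went the other way, at 42.4, 41.7, 44.3 and 47.6 CPM in Drp1_KO mice and 53.2, 48.7, 43.9, 51.1 and 49.4 CPM in Drp1_WT mice (log2 fold change -0.16, SE 0.11). In complex IV, Cox5a and Cox7a2l (a factor of respiratory supercomplexes) had log2 fold changes of 0.26 (SE 0.17) and 0.23 (SE 0.14). Without tube 10 of mouse b these were 0.20 and 0.24. In complex II, Sdhb (0.14, SE 0.16) and Sdhd (0.07, SE 0.10) were near 0, and both signs turned without the libraries labelled Drp1_WT in tubes 11 to 15 (-0.033 and -0.0097). In ATP synthase, the catalytic-head subunit Atp5a1 had a log2 fold change of -0.17 (SE 0.14) and the membrane subunit Atp5l one of 0.25 (SE 0.22). None of these was called.

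Of the 78 fold changes 61 were positive (78.2%, where 49.4% of all tested genes were). Their median was 0.11 on the log2 scale, against -0.00 over all tested genes. All 11 of complex IV were positive, 28 of 37 in complex I, 14 of 17 in complex V, 6 of 9 in complex III and 2 of 4 in complex II. The median followed single mice: it was -0.02 without mouse d and -0.03 without the libraries labelled Drp1_WT in tubes 11 to 15. After the trend of fold change on transcript length over all tested genes was removed, it was 0.01. Then 43 of 78 were positive, where 6611 of 12800 tested genes with a length were. Within tubes 1 to 15 alone the median was 0.06, and with the tube set as a term in the model 0.08. By length, positive shares of members and other tested genes were 84.8% and 72.4% under 700 bases, with medians of 0.13 and 0.13. From 700 to under 1000 bases these were 81.25% and 71.8% (medians 0.08 and 0.12). From 1000 to under 1500 bases these were 92.9% and 59.2% (0.15 and 0.06). From 1500 to under 2500 bases these were 58.3% and 46.3% (0.07 and -0.03). From 2500 bases these were 0 of 3 and 45.6% (-0.06 and -0.03).

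**Figure D2:**
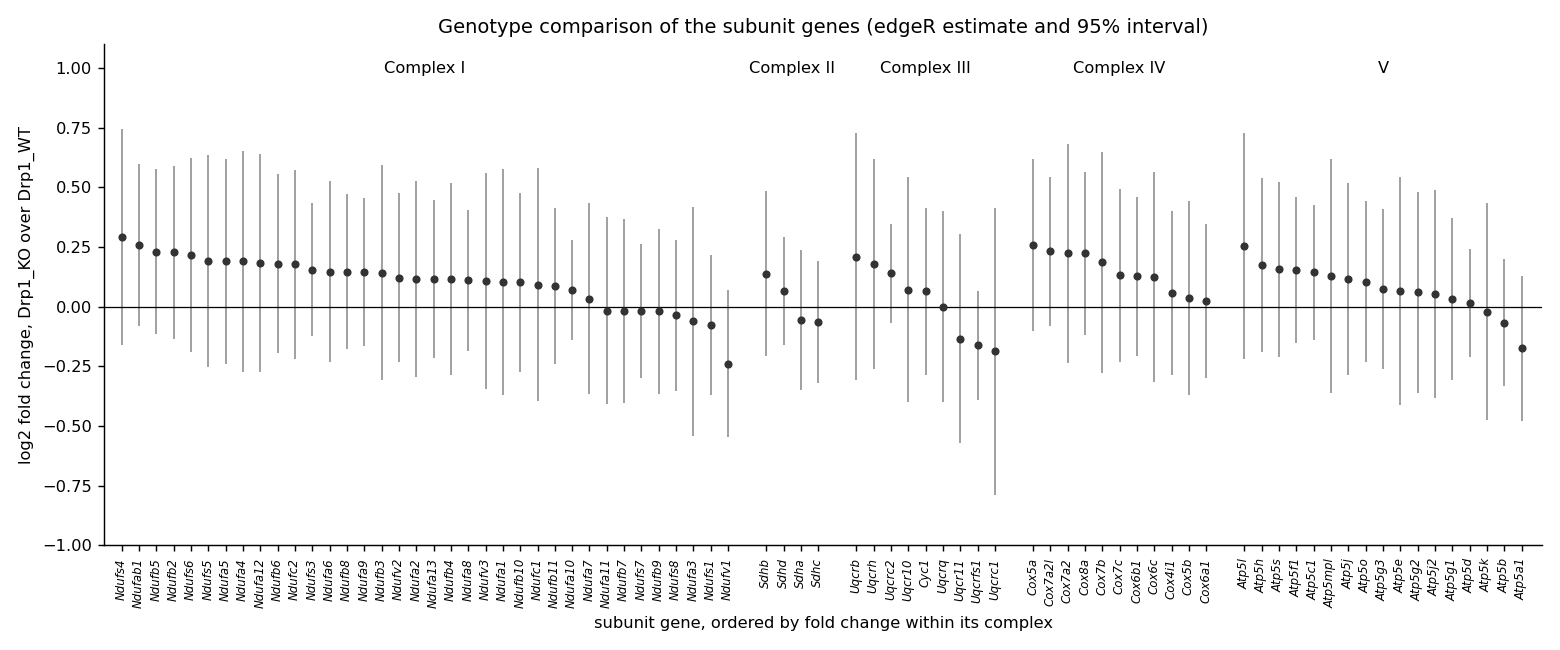
Log2 fold change of 77 of the 78 subunit mRNAs, Drp1_KO over Drp1_WT mice (edgeR, counts summed per mouse), with its 95% interval, ordered within each complex. All 77 intervals shown lie between -0.79 and 0.75 and include 0.

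Summed over a complex, the difference between labels was smaller than the SD between mice of at least one label. Complex I mRNAs summed to 4267 ± 580.2 CPM in Drp1_KO mice and 4238 ± 689 CPM in Drp1_WT mice (SD, n = 4 and 5, with each oocyte scaled to its own total and averaged per mouse). Complex II was at 762 ± 55.4 and 796 ± 17.9 CPM in Drp1_KO and Drp1_WT mice, complex III at 1188 ± 117 CPM in Drp1_KO and 1193 ± 198 CPM in Drp1_WT mice, complex IV at 2518 ± 363 CPM in Drp1_KO and 2406 ± 466 CPM in Drp1_WT mice, and complex V at 2698 ± 234 CPM in Drp1_KO and 2801 ± 301 CPM in Drp1_WT mice. The ratio of Drp1_KO to Drp1_WT for all 78 genes was 1.00. These values include tube 10 of mouse b. Without it, Drp1_KO mice were at 4409 ± 411, 794 ± 22.7 and 1235 ± 54.6 CPM for complexes I, II and III. For complexes IV and V they were at 2544 ± 343 and 2783 ± 90.8 CPM. Drp1_KO minus Drp1_WT was then 172, -2.15, 41.3, 138 and -18.0 CPM for complexes I to V. The sign of the difference depended on the libraries and the scaling. Without the libraries labelled Drp1_WT in tubes 11 to 15, Drp1_KO minus Drp1_WT was -247 CPM for complex I (29.5 CPM with them) and -82.5 CPM for complex IV (112 CPM with them), and it was below 0 for all 5 complexes. With TMM factors per oocyte it was above 0 for all 5, at 263 CPM for complex I, 6.25 CPM for complex II, 56.5 CPM for complex III, 279 CPM for complex IV and 56.6 CPM for complex V. Counts are relative to each library's total, so these values say nothing of the amount of mRNA per oocyte. The 13 mRNAs of the mitochondrial genome, which are its only genes in the count table and whose products join these subunits, took 0.169% to 0.599% of counts in the Drp1_KO oocytes other than tube 10 and 0.14% to 0.669% in Drp1_WT oocytes.

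**Figure D3:**
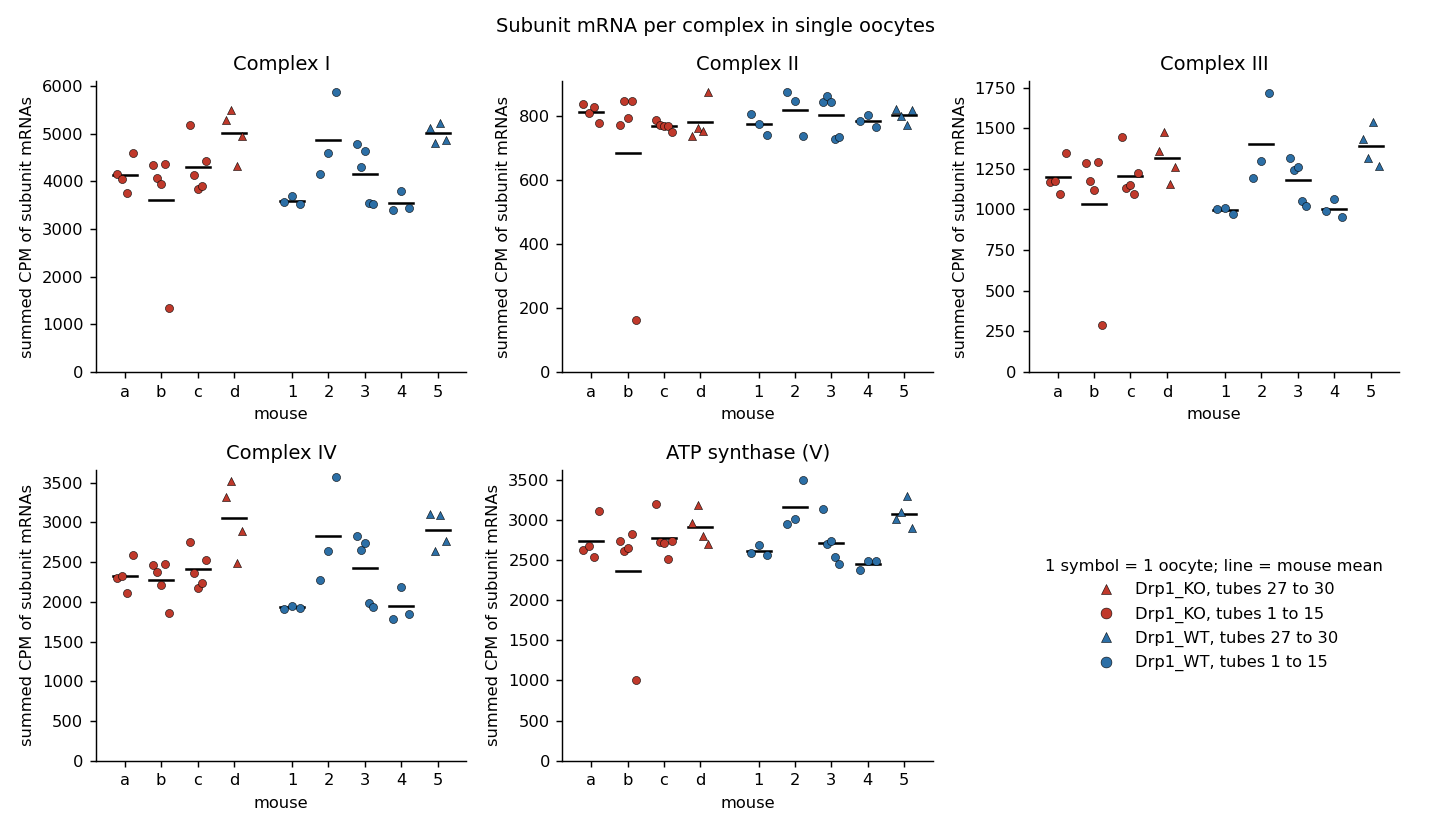
Summed CPM of the subunit mRNAs of each complex in 36 single oocytes, by mouse, with Drp1_KO mice a to d in red on the left and Drp1_WT mice 1 to 5 in blue on the right. Triangles are tubes 27 to 30, circles tubes 1 to 15, and lines mouse means. In every panel 1 oocyte of mouse b, tube 10, is the lowest of the Drp1_KO oocytes, and mice d and 5 are among the highest for complexes I, III and IV.

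The mice in tubes 27 to 30 were the highest for complexes I and IV. The sum over complex I was 5018 CPM in mouse d and 5009.8 CPM in mouse 5, against 4144, 3611, 4295, 3596, 4874, 4164 and 3546 CPM in mice a, b, c, 1, 2, 3 and 4. Complex IV summed to 3056 and 2904 CPM in mice d and 5, against 1931 to 2829 CPM in the other 7. The ratio of tubes 27 to 30 to tubes 1 to 15 was 1.29 for complex IV, 1.24 for complex I, 1.18 for complex III, 1.11 for complex V and 1.02 for complex II. For 939 other tested genes with transcripts under 1000 bases the same ratio was 1.22. All these values and ratios include tube 10 of mouse b. Without it, mouse b summed to 4180 CPM for complex I and 2382 CPM for complex IV. For complex II it was then at 813 CPM, against 683 CPM with tube 10.

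In edgeR's quasi-likelihood test of tubes 27 to 30 against tubes 1 to 15, with genotype in the model, 20 of 78 subunit mRNAs were higher, at a background of 3.58% of tested genes, and 0 were lower, at a background of 1.4%. The 20 were 10 of complex I, Sdhb of complex II, Uqcrb of complex III, 5 of complex IV and 3 of complex V. Earlier results of these data, known when this comparison was chosen, showed respiratory chain genes high in mice d and 5. Its calls and p-values describe that difference and are no independent evidence of it. At an unadjusted p under 0.05, 58 were higher (background 13.6%) and 3 lower (background 12.4%). The median log2 fold change of the 78 was 0.49, against -0.04 over all tested genes. Both mice were above the other 7 for 46 members (background 11.7%) and below them for 1, Atp5a1 (background 10.9%). The calls depend on single mice: 0 of 78 were called without mouse a or mouse 4, or without the libraries labelled Drp1_WT in tubes 11 to 15. Without mouse c 9 were called, and without mouse 2 60 were called. The share of all tested genes called in these fits is not given here. The median stayed between 0.40 and 0.56 in those fits, and was 0.44 without mouse d and 0.50 without mouse 5.

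The 6 smallest p-values all fell on accessory subunits of complex I. Ndufs4, whose loss in mice causes a fatal encephalopathy, was at 249 and 192 CPM in mice d and 5, against 156, 131, 137, 107, 129.6, 149.5 and 109 CPM in mice a, b, c, 1, 2, 3 and 4. Its log2 fold change was 0.73 (SE 0.13, edgeR adjusted p = 0.0294), and both mice were above all others. Ndufs5 was at 89.98 and 82.0 CPM in mice d and 5, against 53.3 ± 7.70 CPM (SD, n = 7 mice) in the others (log2 fold change 0.68, SE 0.14, edgeR adjusted p = 0.0307). The membrane-arm subunits Ndufb5, Ndufb6, Ndufb8 and Ndufb11 had log2 fold changes of 0.52, 0.57, 0.49 and 0.49, each with an edgeR adjusted p of 0.0307. Ndufs5 and these Ndufb genes each have a near-identical stretch in a transcript of another gene. The Ndufb genes also share exon bases with another gene. Counts of Ndufs5 and of the Ndufb genes are uncertain to that extent. With limma-voom on oocytes, Ndufb11 (adjusted p = 0.148) and Ndufs5 (adjusted p = 0.0507) were not called. Ndufb11, which is on the X chromosome and has the YY1 word in its window, was at 391 and 363 CPM in mice d and 5, against 267 ± 20.6 CPM in the other 7.

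The called genes of the other complexes were all higher as well. Cox4i1, which binds regulatory nucleotides in complex IV, was at 551 and 539 CPM in mice d and 5, against 382, 357, 421, 343, 424, 405 and 347 CPM in mice a, b, c, 1, 2, 3 and 4 (log2 fold change 0.51, SE 0.11, edgeR adjusted p = 0.0307). Atp5e was at 447 and 394 CPM in mice d and 5, against 252, 237, 266, 213, 335, 289 and 206 CPM in mice a, b, c, 1, 2, 3 and 4 (log2 fold change 0.71, SE 0.16, edgeR adjusted p = 0.0311). For both genes mice d and 5 were above the other 7, of which mouse 2 was the highest. Of the c-ring genes, Atp5g1 (0.43, SE 0.13), Atp5g3 (0.36, SE 0.15) and Atp5g2 (0.32, SE 0.21) had positive log2 fold changes, none called.

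Fold changes of tubes 27 to 30 over tubes 1 to 15 were negative for 8 members, where 6893 of 12812 tested genes were negative. Among the 8 were Ndufs1 and Ndufv1 of the complex I core, Sdha, Cyc1 and Uqcrc1. The alpha and beta subunits of the ATP synthase head, Atp5a1 and Atp5b, were also among them. None of the 8 was called. Atp5a1 was at 264 and 296 CPM in mice d and 5, against 343, 304, 352, 459, 329, 316 and 381 CPM in mice a, b, c, 1, 2, 3 and 4 (log2 fold change -0.33, SE 0.14, edgeR adjusted p = 0.143). Sdha was at 122 and 147 CPM in mice d and 5, against 167 ± 19.0 CPM in the others (log2 fold change -0.31, SE 0.13, edgeR adjusted p = 0.17). Sdhb, its partner in complex II, was at 182 and 174 CPM in mice d and 5, against 126 ± 14.9 CPM in the others (log2 fold change 0.49, SE 0.12, edgeR adjusted p = 0.0423). The sum over complex II, with a ratio of 1.02, thus joins members of both signs.

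Transcript length moved with these fold changes. All 8 negative members have principal transcripts of 1520 bases or more, among 15 members of at least 1500 bases, and 13 of the 20 called members are under 1000 bases. Across the 78 genes the Spearman correlation of length with the tube-set log2 fold change was -0.51, and across 12722 other tested genes it was -0.24. These are descriptions over genes of the same libraries. Under 700 bases, 10 of 33 members (30.3%) and 13.6% of 330 other genes were called higher, with median log2 fold changes of 0.53 and 0.46. From 700 to under 1000 bases, 3 of 16 members (18.8%) and 15.4% of 609 other genes were called higher, with medians of 0.49 and 0.37. From 1000 to under 1500 bases, 5 of 14 members (35.7%) and 7.23% of 1410 other genes were called higher, with medians of 0.43 and 0.17. From 1500 to under 2500 bases, 2 of 12 members (16.7%) and 3.09% of 3200 other genes were called higher, with medians of -0.04 and -0.05. From 2500 bases, 0 of 3 members and 1.38% of 7173 other genes were called higher, with medians of -0.23 and -0.11. With the length trend over all tested genes removed, the median of the 78 was 0.10, against -0.02 over all tested genes. Then 54 of 78 were positive, where 6077 of 12800 tested genes with a length were. Ndufs4 and Ndufv2 were called at 1698 and 1697 bases. The part of length, of RNA quality and of depth in the difference was not tested. Total counts ran from 5430739 to 7406895 in tubes 27 to 30 and from 3178509 to 7104219 in tubes 1 to 15.

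**Figure D4:**
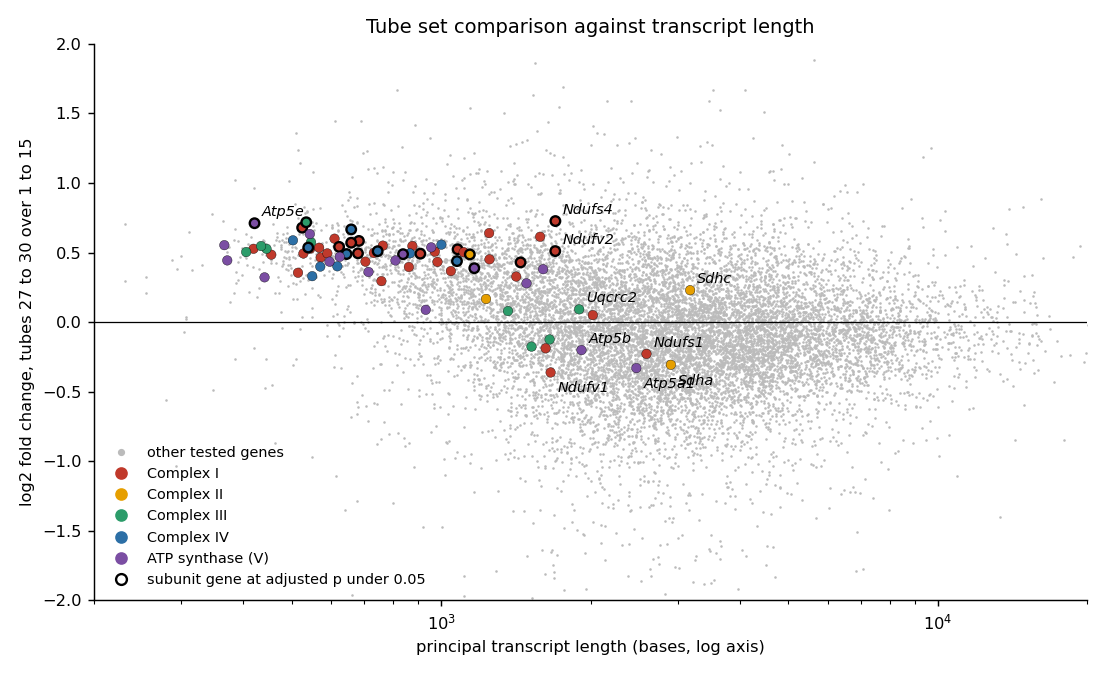
Log2 fold change of tubes 27 to 30 over tubes 1 to 15 (edgeR, genotype in the model) against principal transcript length on a log axis, for the 78 subunit genes coloured by complex and for the other tested genes in grey. Bold outlines mark the 20 subunit genes at an adjusted p under 0.05, and 63 other genes lie outside the plotted range. Subunit genes under 1000 bases all lie above 0, and the 8 below 0 are at 1520 bases or more.

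The fold change between labels did not differ detectably between the 2 tube sets. The product of genotype and tube set was called for 0 of 78 members by edgeR (background 0.0312%), and 0 passed an unadjusted p of 0.05 (background 2.47%). The smallest unadjusted p was 0.147, and the median of the product was 0.06 on the log2 scale. With 1 mouse of each label in tubes 27 to 30, only large differences could have been called.

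Tested per oocyte, differences between mice of the same label were called by edgeR for 2 members, both of complex IV. The background was 0.843% of the 12105 genes in that test. Cox7a2 was at 291, 297, 277 and 479.6 CPM in Drp1_KO mice and at 211, 339.5, 287, 206 and 396 CPM in Drp1_WT mice (edgeR adjusted p = 0.0357). Cox6c was at 234, 232, 214 and 347 CPM in Drp1_KO mice and at 176, 285, 237, 163 and 317 CPM in Drp1_WT mice (edgeR adjusted p = 0.0299). Mice d and 5 were the highest of their labels for both genes and mouse 4 the lowest of all 9. Without tube 10 of mouse b, 50 of 78 members were called, at a background of 13.4% of 12085 genes. Without mice d and 5, and with tube 10 kept, 0 were called. A fit without tube 10 and without those mice was not run.

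Relative to each gene's mean over the 9 mice, the median member stood at 0.43 in mouse d and 0.31 in mouse 5 on the log2 scale, at -0.02, -0.11 and -0.04 in mice a, b and c, and at -0.32, 0.13, -0.06 and -0.35 in mice 1 to 4. Other short genes had medians of 0.33 and 0.22 in mice d and 5 and of -0.27 in both mouse 1 and mouse 4. In mouse 5, 73 of 78 members were above their own mean, in mouse d 69, in mouse 1 7 and in mouse 4 9. Mice 1 and 4 both had low medians, and Dnm1l was low in the libraries of mouse 4 and not in those of mouse 1. Within mouse 3 the 78 genes took 0.985% and 0.967% of counts in tubes 11 and 12, where Dnm1l was low. In tubes 7, 8 and 10 of that mouse they took 1.29%, 1.18% and 1.22%. The part of Dnm1l level or of tube number in these differences was not tested.

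**Figure D5:**
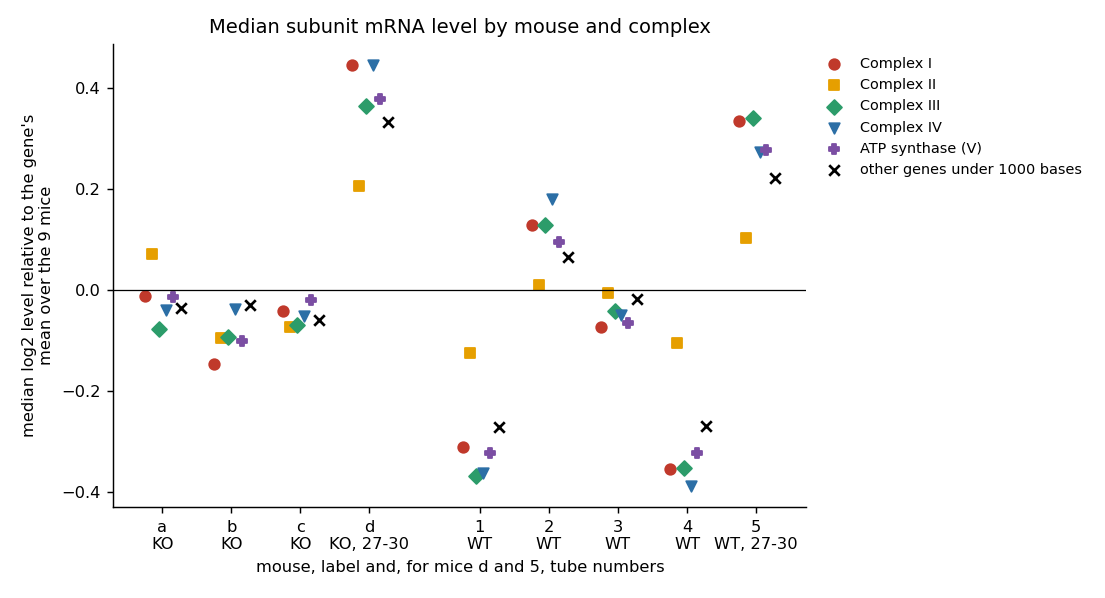
Median log2 level of the members of each complex by mouse, relative to each gene's mean over the 9 mice, with crosses for 939 other tested genes under 1000 bases. Drp1_KO mice are on the left. Complexes I, III, IV and V and the other short genes are high in mice d and 5 and low in mice 1 and 4, and complex II is nearer to 0 in those 4 mice.

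Across single oocytes the subunit mRNAs varied together. The median Spearman correlation over 36 oocytes was 0.67 for pairs within a complex and 0.59 for pairs from different complexes, against 0.04 for pairs of all tested genes. Centred on each mouse's mean and without tube 10 the medians were 0.49, 0.38 and 0.03 over 35 oocytes. Pairs of short transcripts (both under 1000 bases) had a median of 0.74 and pairs of longer ones 0.16. With mouse means removed and without tube 10 these were 0.66 and 0.02. All pairs share libraries, and the correlations are given as descriptions. The other genes whose level followed the sum of the 78 most closely were Nedd8 (Spearman 0.95 over 36 oocytes), Polr2i, Trappc2l, Mrpl42, Hint1, Psmb2, Nop10, Oosp2, Mrps21 and Dynlrb1 (0.94 to 0.95), and 8 of these 10 have transcripts under 1000 bases. The SD between oocytes of a mouse, without tube 10, had a median of 0.25 for members and 0.37 for all tested genes on the log2 scale.

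In tube 10 of mouse b, labelled Drp1_KO, 64 of the 78 members were below every other library, where 42.2% of tested genes were. Above every other library were 3 members, where 14.4% of tested genes were. A gene with 0 counts in another library cannot count as below. Of the 78, 77 had counts in all 36 oocytes, which was not required of the tested genes. The log2 level of the median member (log2 of CPM + 1) differed by -2.23 from its median in the other Drp1_KO oocytes. Ndufv1 was at 0.20 CPM, against 48.9 to 154 CPM in the other 35 libraries, and Sdhd at 19.4 CPM, against 319 to 467 CPM. Cox5a was at 566 CPM, against 236 to 533 CPM, and was, with Cox8a and Ndufa10, one of the 3 that were above all. In the same library the mitochondrial genome took 5.61% of counts, the sum of 9 immune markers was 667 CPM, with 2.08 to 8.84 CPM in the remaining libraries, and oocyte markers summed to 15186 CPM, against at least 23517 CPM elsewhere. The part of other cells or of RNA quality in this library was not tested. Without it, Drp1_KO mice had a summed level of 11766 ± 884 CPM for the 78 genes, against 11435 ± 1659 CPM in Drp1_WT mice (SD, n = 4 and 5).

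Genes outside the members that serve the same complexes, among them tissue and testis isoforms of subunits, were described from 6 lists. In the genotype comparison edgeR called 0 in each of them. Of the complex I assembly list, 17 genes were tested, and the smallest p-values were those of Ndufaf6 at 40.7 ± 1.87 CPM in Drp1_KO and 29.3 ± 2.26 CPM in Drp1_WT mice (log2 fold change 0.48, SE 0.11, edgeR adjusted p = 0.398) and Nubpl at 124 ± 39.2 and 79.4 ± 19.9 CPM in Drp1_KO and Drp1_WT mice (0.65, SE 0.22, edgeR adjusted p = 0.499). Nubpl delivers iron-sulfur clusters to complex I. For the 15 tested assembly factors of complexes II, III and V these were Lyrm7 (log2 fold change 0.47, SE 0.18) and Sdhaf4 (0.44, SE 0.19), and for the 20 of complex IV Coa3 (0.37, SE 0.16) and Higd2a (0.24, SE 0.15).

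Of 7 tested tissue and testis isoforms, all had positive log2 fold changes between labels, where 49.4% of all tested genes did. The smallest p-values among the 7 were those of the muscle isoform Cox6a2 (0.47, SE 0.18) and of cytochrome c, Cycs (0.46, SE 0.20). Cycs is the somatic partner of the testis form Cyct and is also in the list of electron carriers. Among 20 genes of electron carriers and ubiquinone synthesis, Coq8a was at 1.02 ± 0.35 CPM in Drp1_KO and 2.35 ± 0.79 CPM in Drp1_WT mice (log2 fold change -1.19, SE 0.33, edgeR adjusted p = 0.471), and Coq10b at 282 ± 70.7 and 194 ± 32.0 CPM in Drp1_KO and Drp1_WT mice (0.54, SE 0.17, edgeR adjusted p = 0.471). Of 11 tested regulators of respiratory genes, the coactivators Ppargc1b (-0.45, SE 0.19) and Ppargc1a (-0.88, SE 0.42) had the smallest p-values, and Ppargc1a was below 1 CPM in both labels.

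In tubes 27 to 30 against 1 to 15, edgeR called higher 3 of 17 tested genes of complex I assembly (Ndufaf3, Ndufaf4 and Tmem126a). It also called higher 1 of 15 of complex II, III and V assembly (Sdhaf4) and 2 of 20 of complex IV assembly (Cox16 and Cmc2). Of the 7 in the isoform list, 2 were called higher, Cycs, at 3123 bases, and its testis form Cyct, at 655 bases. The share called higher was 3.58% over all tested genes and 13.6% over tested genes under 700 bases outside the 78 members. Of 20 carrier genes, Cycs was called higher and 2, Coq8b and Dhodh, lower, where 1.4% of all tested genes were lower. None of 11 regulators was called. The median log2 fold changes of the 6 lists were 0.37, 0.19, 0.37, 0.63, -0.17 and 0.02 for complex I assembly, complex II, III and V assembly, complex IV assembly, isoforms, carriers and regulators.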

How the data were processed

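Single oocytes were lysed, amplified with a SMARTer kit, made into libraries with Nextera XT and sequenced single-end, per the labels' protocols. The deposited values are raw counts of reads per gene, with no molecular identifiers. STAR, featureCounts (Subread 1.5.2) and Picard with build GRCm38 are named in the submitters' processing notes. Counts were summed per mouse and tested with edgeR 4.0.16 (quasi-likelihood, TMM factors, filterByExpr) over all 12812 genes that passed, with Benjamini-Hochberg adjustment and a threshold of 0.05. The tube-set fit had genotype as a term. Differences between mice of a label were tested over oocytes, with a filter by mouse that left 12105 genes, and 12085 without tube 10 of mouse b. Standard errors are the log2 fold change divided by the square root of F, and 95% intervals use edgeR's degrees of freedom. DESeq2 1.42.0 and limma 3.58.1 (voom) were alternatives. The p-values of the edgeR genotype, tube-set and product tests set a difference against the spread between these mice. Those of the test between mice of a label set it against the spread between oocytes of a mouse. Floors cover counting error only. CPM per oocyte and sums over a complex are shares of a library. The CPM of a gene per mouse, also per kilobase, are scaled with TMM factors to the counts of the tested genes.

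Transcript length is that of the GENCODE M21 principal transcript (best APPRIS level, then best support, then the shortest), used in place of summed exon length, which joins unlike transcripts. Length trends were removed by loess (span 0.5). Near-identical transcripts were found with blastn 2.17.0. The members, the lists and the comparison of tube sets were chosen with earlier results of these data known. Genes named in the text are the 3 highest and the lowest per kilobase in each complex, the 2 with the smallest genotype p in each, the 6 with the smallest tube-set p, the 2 called between mice, the c-ring genes, members known from other roles (Ndufa4, Ndufab1, Cox7a2l, Atp5s), the 10 genes that followed the sum most closely, and the 2 with the smallest genotype p in each list, and the other genes named were chosen after their values were seen. One member counted among the 78 is not reported here by itself. The fits were tested on simulated data.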

Additional observations from a re-analysis of the deposited data

Results flagged for a closer look

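In 84 groups of mice (the CPM of 37 named members and of 5 complex sums, within each label), 13 held a mouse whose gap to the nearest of the others was over Dixon's critical value at the 95% level. Chance flags about 1 in 20 groups, but genes of one mouse are not independent, and 6 of the members were named for a difference of mice d and 5 from the rest and 2 for a difference between mice, so 13 of 84 cannot be set against that rate. The 11 among Drp1_KO mice were all mouse d, above mice a, b and c. In complex I these were Ndufa2 at 317 CPM (others 203 to 221), Ndufs5 at 89.98 CPM (53.3 to 59.3), Ndufb5 at 265 CPM (182 to 190.5), Ndufb6 at 133 CPM (88.2 to 93.1) and Ndufab1 at 84.3 CPM (61.5 to 65.2). In complexes III and IV they were Uqcrh at 439 CPM (272 to 297), Cox6c at 347 CPM (214 to 234) and Cox7a2 at 479.6 CPM (277 to 297). In ATP synthase they were Atp5e at 447 CPM (237 to 266), Atp5j2 at 423 CPM (260.0 to 279) and Atp5l at 12.05 CPM (7.03 to 7.61). Among Drp1_WT mice, mouse 1 stood apart for Ndufs1 at 42.3 CPM (others 31.4 to 33.8) and mouse 5 for Uqcrc2 at 428 CPM (355 to 376).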

How the results depend on the processing

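The genotype comparison called 0 of 78 members under all 21 alternatives run, and leaving out 1 mouse moved its median between -0.02 and 0.20. The 20 members called in tubes 27 to 30 became 41 with DESeq2 and 37 without tube 10 of mouse b. They became 32 without the mitochondrial genome, 13 with upper-quartile factors and 0 without the libraries labelled Drp1_WT in tubes 11 to 15. With 1 mouse of tubes 1 to 15 left out, 0 to 60 were called. The share of all tested genes called in each of these fits is not given here, so the counts lack a background. The median tube-set log2 fold change of the 78 members was 0.44 to 0.56 with 1 mouse left out and 0.10 with the length trend removed. The 2 calls between mice became 50 without tube 10 (background 13.4%), and 0 without mice d and 5 but with tube 10. At a mean CPM of at least 10 they became 4, for which no background is given. The Drp1_KO minus Drp1_WT difference of complex II was -34.7 CPM, and 6.25 CPM with TMM factors per oocyte. The log2 fold change of Sdhd between labels turned to -0.094 with limma-voom, -0.0097 without the libraries labelled Drp1_WT in tubes 11 to 15, and ran from -0.0087 to 0.12 with 1 mouse left out, and that of Sdhb turned to -0.033 without those libraries. The cause was not tested. Tubes 27 to 30 hold 1 mouse of each label, so leaving out mouse d or 5 leaves a lone sample, assumed to vary like the others. No paired analysis was possible because mice are lettered in one label and numbered in the other.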
